A study of Caenorhabditis elegans with 6 samples.

Results

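Nerve cells release transmitter from small synaptic vesicles and neuropeptides from dense core vesicles, and the mRNA levels of 35 genes that run these steps were compared between 3 libraries labelled let-607 RNAi and 3 libraries labelled control, from whole *Caenorhabditis elegans* worms. The word RNAi-labelled stands for libraries labelled let-607 RNAi. The 35 genes were chosen by name and known function, as genes of synaptic release, of transmitter synthesis and transport and of dense core vesicles, and include snb-1, the transcript to which the study scaled its quantitative PCR (qPCR). The list was proposed with the differences of this same contrast known, so the FPKM values of the members (fragment counts scaled by the authors to transcript length and to library size) are given as a description, without a test. All 35 were found among the 46778 genes of the deposited values, and all 35 passed the minimum level set for the comparison, a mean of 0.5 FPKM over the 6 libraries, as did 15453 genes in all.

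The worms were wild type (strain N2), grown at 20 °C. Synchronized first-stage larvae were placed on HT115 bacteria and collected at the fourth larval stage (L4). One group ate bacteria that make double-stranded RNA of let-607, diluted with vector control bacteria according to the study's methods, and the other ate bacteria with the empty vector L4440. LET-607 is a CREB-like transcription factor of the family that mammalian CREBH belongs to. No source used here says that the replicates came from separate cultures, so any p-value below measures only the spread between these libraries.

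Vesicles dock at the active zone of the presynaptic membrane, where SNARE proteins on vesicle and membrane zip together and fuse both. Priming factors set this machinery ready, calcium entry triggers it through synaptotagmin, and endocytosis then recovers the vesicle membrane. Dense core vesicles carry peptides that are cut from precursors inside the vesicle, and are released with the help of their own priming factor.

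snb-1 is the member on which the study's qPCR rests, and its primers from the study's list of primers are shown for that reason. They are 18 and 23 bases long, written 5′ to 3′.
snb-1 forward: gcaagtattggtggaaga
snb-1 reverse: acgatgatgataataagaatgac
The gene itself lies on the minus strand of chromosome V, at 6655562 to 6656501 of WBcel235, and the annotation gives it a single transcript. The primers were not placed on the genome here.

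The RNAi target was measured first. let-607 had 71.0, 76.2 and 77.9 FPKM in libraries labelled let-607 RNAi, against 69.1, 57.1 and 57.3 FPKM in the libraries labelled control. Its mRNA was thus not lower in any library labelled let-607 RNAi than in any control library. The levels were 75.04 ± 3.64 (RNAi-labelled) and 61.2 ± 6.85 FPKM (control) as mean ± SD (n = 3 each), the log2 fold change was 0.30 with a standard error (SE) of 0.084, and the adjusted p was 0.034 (limma with Benjamini-Hochberg adjustment over all genes tested). Leaving out each library in turn gave log2 fold changes of 0.25 to 0.39 and adjusted p of 0.00486 to 0.102, the highest without control replicate 3. A two-sided exact permutation test of the 6 values gave p = 0.1, the smallest value that 3 against 3 libraries allow. Values after ± are SDs over 3 libraries throughout. As a check of knockdown, the target's mRNA therefore goes against the labels. Some other qPCR targets of the study differed between the libraries as labelled. Of the study's 23 qPCR targets, let-607 among them, 8 lay above and 4 below every control library, beside 35.7% and 13.4% of all genes. sms-5, a sphingomyelin synthase gene, passed as higher in RNAi-labelled libraries, with overlapping groups and a log2 fold change of 1.41 (adjusted p = 0.077). It did not pass without replicates 1 or 2 of let-607 RNAi (adjusted p = 0.208 and 0.176) or without control replicates 1 or 3 (adjusted p = 0.166 and 0.19). Of the targets in methionine and phospholipid synthesis, sams-1 (log2 fold change −0.73), pmt-2 (−0.53) and cept-1 (−0.22) lay below every control library. In the same class, pcyt-1 (0.34, adjusted p = 0.00201, limma) lay above every control library, and ckb-1 (0.093) overlapped. The reason for the level of let-607 was not tested, and every direction below is one between libraries as labelled.

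Following the cut-offs of the study's methods, passing took a change of more than 1 on the log2 scale in either direction together with an adjusted p under 0.1. By this rule 579 genes were higher and 216 lower after feeding labelled let-607 RNAi. The log2 fold changes of all genes had a median of 0.13, so values relative to this shift are given where direction matters. Depth was estimated from low values of single-transcript genes, which cluster near whole numbers of fragments. In each library the scale was chosen to make the share within 0.15 of a whole number highest (69.3% to 71.9% of 1194 to 1267 genes). An even spread would give 30% at a scale fixed beforehand, so the share is no test of the clustering. The estimate was about 21400000 to 23300000 fragments per library, with no large gap between the groups. Of the cell type lists, oocyte markers had the median farthest from that of all genes (0.76). All 8 of them were above every control library, where 35.7% of all genes tested were above and 13.4% below. The genes cpg-2 and puf-5 passed, 2 of 8, where 5.14% of all genes did, though puf-5 was at 0.98 without control replicate 2 and then did not pass. The summed level of the 8 was 294 to 323 FPKM (RNAi-labelled) against 160 to 188 FPKM (control). Sperm markers (median 0.31) summed to 813 to 857 FPKM (RNAi-labelled) against 598 to 651 FPKM (control), with 8 of 10 above. Of 10 hypodermis markers (median 0.29) 7 were above, with dpy-2, dpy-3 and dpy-7 at 0.72 to 0.82, and they summed to 3068 to 3360 FPKM (RNAi-labelled) against 2754 to 3098 FPKM (control). The 5 glia markers tested (median 0.33) had 3 above and 1 below, and summed to 31.2 to 31.9 FPKM (RNAi-labelled) against 27.0 to 28.7 FPKM (control). Germline markers were near all genes, 0.026 over their median, with 7 of 12 above and glh-1 below. Of the 9 intestine markers tested (median −0.125 relative to all genes), 3 were above and 2 below, and only mtl-2 passed, as lower (−1.24). None of these markers was at 0 in all libraries, and the part of these cells in the values below was not tested.

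The neuron markers as a set were near the shift of all genes. The 10 neuron markers (among them unc-119 and rgef-1, which most neurons express, and mec-7 and mec-17 of touch neurons) summed to 399 to 409 FPKM in libraries labelled let-607 RNAi and 378 to 392.1 FPKM in those labelled control, with 3 above and 2 below, beside the 35.7% and 13.4% of all genes, and a median log2 fold change of 0.060. None of the 10 was at 0 in all libraries, and none passed. They ranged from −0.24 (mec-17) to 0.50 (unc-33). A large part of the sums was unc-44, with means of 174.6 FPKM (RNAi-labelled) and 162.4 FPKM (control). Of 15 transcription factors of neuron identity tested (median 0.068), 1 was above and 0 below, and none passed. In whole worms, fewer cells of a type and less RNA per cell cannot be told apart.

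As a set, the 35 genes lay around the shift of all genes. None passed, where 5.14% of all genes tested did in either direction (limma). With an unadjusted p under 0.05 in place of the adjusted one, still no member passed. Without a minimum fold change, 10 (28.6%) would be called higher and 2 (5.7%) lower, beside 31.7% and 11.4% of all genes tested. In 13 members (37.1%) every library labelled let-607 RNAi lay above every control library, and in 3 (8.6%) every one lay below, where 35.7% and 13.4% of all genes did. Since the members were proposed with this contrast in view, nothing is read from these counts.

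On the log2 scale, the members had a median of 0.12 and all genes one of 0.13. By sign, 28 members were positive and 7 negative, but 17 lay over and 18 under the median of all genes. Small differences have no sign independent of the scaling, since median-of-ratios scaling brings the median of all genes to 0.004 and quantile normalization to −0.025. With the first, 18 of the 35 were positive and their median was 0.001, and with quantile normalization 14 were positive and their median was −0.060. Relative to all genes the median of the members was −0.001 as deposited, −0.003 with median-of-ratios scaling and −0.035 with quantile normalization. The 35 were spread over a narrower range than genes at large. Within 0.3 of the median of all genes lay 30 members (85.7%), against 64.7% of all genes tested, which were not matched to the members in level. The members ranged from −0.73 (bas-1) to 0.57 (snb-1).

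**Figure D1:**
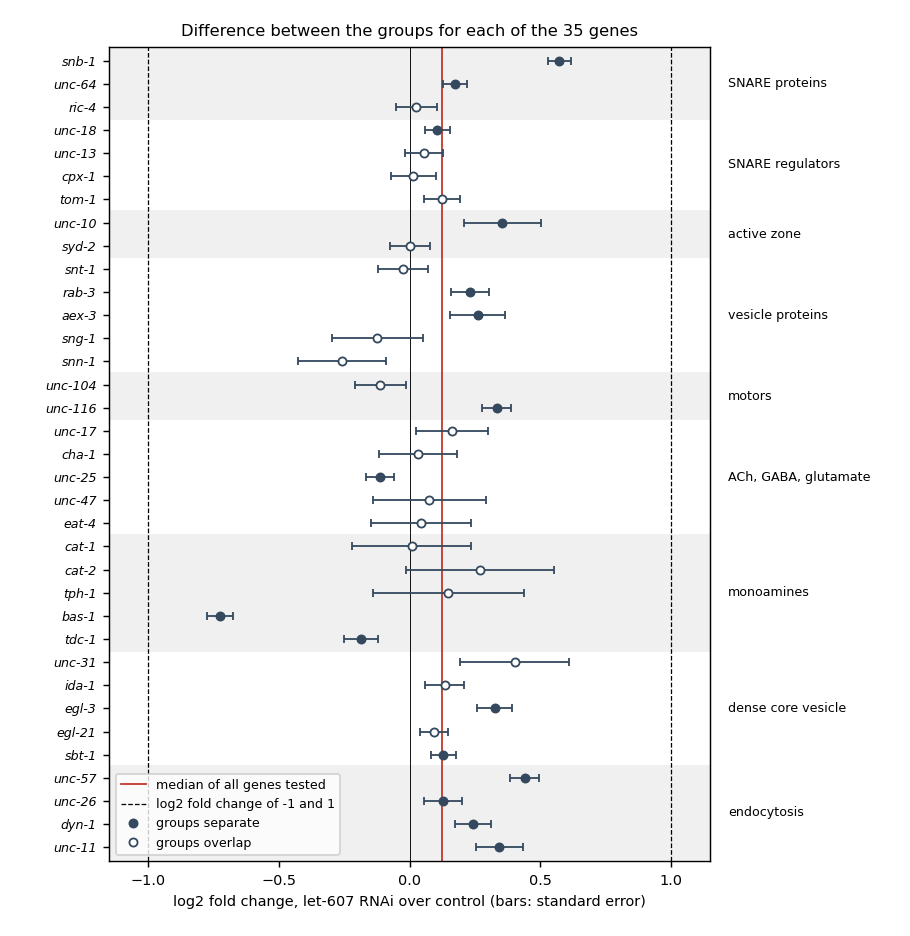
Log2 fold change of each of the 35 genes (libraries labelled let-607 RNAi over those labelled control, on the log2(FPKM + 0.1) scale) with its standard error as bars, grouped by role. Filled points are genes whose groups do not overlap (13 above, 3 below), open points the 19 whose groups do. The red line is the median of all genes tested, 0.13, and no gene reaches the dashed lines at −1 and 1.

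Levels spanned more than the differences did. The mean over the 6 libraries ran between 0.738 FPKM for tph-1 and 192.6 FPKM for snb-1, with 8 members under 3 FPKM and 12 over 30 FPKM. Precision broadly followed the level, in part because the fit draws each gene's variance toward a trend with level. Between 3 and 30 FPKM, unc-31 (SE 0.21) and sng-1 (SE 0.17) were less precise than some rarer members. The SE of the log2 fold change was 0.14 to 0.29 for the 8 members under 3 FPKM and 0.044 to 0.099 for the 12 over 30 FPKM. Of these 8 rare members, 7 make or load a transmitter and the other is unc-10. tph-1 and cat-2 rested on an estimated 21 to 32 and 30 to 47 fragments per library, while snb-1 rested on 2583 to 2785 fragments in libraries labelled let-607 RNAi and 1730 to 1892 in the controls. These are approximations from the longest transcript. Changes of the rarest transcripts that are small were therefore not detectable at this depth.

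**Figure D2:**
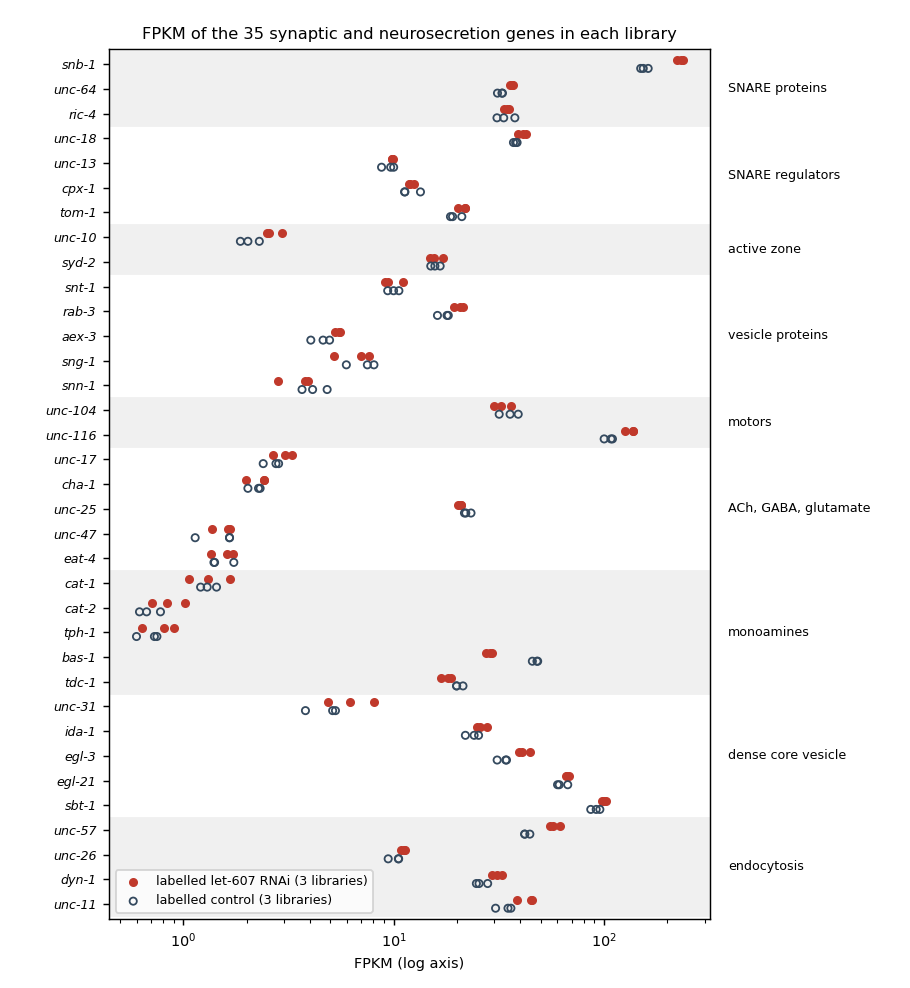
FPKM of the 35 genes in each library on a log axis, grouped by role, with filled points for the 3 libraries labelled let-607 RNAi and open points for the 3 labelled control. Mean levels run between 0.738 FPKM (tph-1) and 192.6 FPKM (snb-1), and the gap between the groups is widest for snb-1 and bas-1.

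The SNARE proteins hold the member with the highest difference of all. snb-1 encodes synaptobrevin, the SNARE of the vesicle membrane. It had 233, 236 and 223 FPKM in libraries labelled let-607 RNAi, against 162, 149 and 153 FPKM in the controls. Every library labelled let-607 RNAi was above every control, and the gap between the groups was wider than the spread within either. The levels were 230.4 ± 6.65 (RNAi-labelled) and 155 ± 6.46 FPKM (control) as mean ± SD (n = 3 each), 1.49-fold, with a log2 fold change of 0.57 and an SE of 0.044. Relative to the median of all genes it was 0.45, and 87.3% of genes tested had a lower value. The level put snb-1 above 93.6% of them. Leaving out each library in turn gave 0.55 to 0.61.

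The other SNARE proteins sit on the plasma membrane and differed less. unc-64 encodes syntaxin and had a log2 fold change of 0.17 (SE 0.046), with means of 36.4 ± 0.688 FPKM in libraries labelled let-607 RNAi and 32.2 ± 0.959 FPKM in the controls, without overlap. ric-4, the worm SNAP25 gene, had 34.7, 35.4 and 33.4 FPKM (RNAi-labelled) against 33.3, 30.97 and 37.7 FPKM (control). Its groups overlapped, with both the lowest and the highest value among the controls (log2 fold change 0.027, SE 0.078). The summed level of these 3 partners of one complex was 293 to 307 FPKM (RNAi-labelled) against 213 to 226 FPKM (control). Most of that gap lay in snb-1, with means of 230.4 FPKM (RNAi-labelled) and 155 FPKM (control).

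The 4 regulators of SNARE assembly lay near zero. tom-1 (tomosyn, which inhibits release) was the highest, at 20.3, 21.9 and 21.9 FPKM in libraries labelled let-607 RNAi and 19.1, 21.1 and 18.6 FPKM in the controls, with a log2 fold change of 0.12 (SE 0.069). cpx-1 (complexin, which clamps and promotes fusion) was the lowest, at 12.5, 11.8 and 11.99 FPKM (RNAi-labelled) against 11.3, 11.3 and 13.4 FPKM (control), with a log2 fold change of 0.015 (SE 0.086). Both genes overlapped between the groups. unc-13, the priming factor, also overlapped, at 9.84 ± 0.0815 (RNAi-labelled) and 9.48 ± 0.644 FPKM (control), with a log2 fold change of 0.055 (SE 0.074). unc-18, which binds syntaxin, was above in every library but by little, at 40.8 ± 1.66 FPKM (RNAi-labelled) against 37.9 ± 0.754 FPKM (control), with a log2 fold change of 0.11 (SE 0.049), which is below the median of all genes.

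Of the active zone scaffolds, unc-10 (RIM, which links vesicles to the release site) was above in all libraries labelled let-607 RNAi, at 2.57, 2.49 and 2.95 FPKM (RNAi-labelled) against 2.30, 2.03 and 1.87 FPKM (control). The log2 fold change was 0.36 with an SE of 0.15, at a level that 16.6% of genes tested fall under. syd-2 (liprin-alpha, which organizes the active zone) showed overlapping groups at 15.8 ± 1.16 (RNAi-labelled) and 15.8 ± 0.813 FPKM (control), a log2 fold change of 0.0018 (SE 0.075).

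Genes of vesicle proteins and of the RAB-3 cycle had values of both signs. aex-3, which activates the vesicle GTPase RAB-3, had 5.28, 5.55 and 5.50 FPKM in libraries labelled let-607 RNAi and 4.96, 4.62 and 4.04 FPKM in the controls. rab-3 itself had 19.3, 20.8 and 21.3 FPKM (RNAi-labelled) against 17.9, 18.2 and 16.2 FPKM (control). Neither gene overlapped between the groups, and their log2 fold changes were close, 0.26 (SE 0.10) for aex-3 and 0.23 (SE 0.071) for rab-3.

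The remaining vesicle proteins had negative values and overlapping groups. snn-1 (synapsin, which tethers vesicles) had 3.81, 2.82 and 3.91 FPKM (RNAi-labelled) against 3.67, 4.12 and 4.83 FPKM (control), a log2 fold change of −0.26 (SE 0.17), the lowest of this group with all libraries. Without replicate 2 of let-607 RNAi it was −0.11, above sng-1 at −0.23, and without control replicate 3 it was −0.16. sng-1 (synaptogyrin) was at −0.12 (SE 0.17) and turned to 0.034 without replicate 3 of let-607 RNAi, whose 5.23 FPKM was the lowest of the 6. snt-1, the synaptotagmin that senses calcium, was at −0.025 (SE 0.096), with 9.84 ± 1.04 FPKM (RNAi-labelled) against 9.98 ± 0.61 FPKM (control). The 5 vesicle genes together had a median of −0.024, and of −0.15 relative to all genes.

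Vesicle precursors reach the synapse on kinesins. unc-116, the heavy chain of conventional kinesin, which cells outside the nervous system also use, had 126, 137 and 137 FPKM in libraries labelled let-607 RNAi and 109.5, 107.8 and 100.1 FPKM in the controls. Its groups were well apart, with a log2 fold change of 0.33 (SE 0.054). unc-104, the neuronal kinesin that carries synaptic vesicle precursors, had 32.5, 36.1 and 29.95 FPKM (RNAi-labelled) against 31.7, 39.1 and 35.7 FPKM (control). Its groups overlapped and its log2 fold change was −0.11 (SE 0.099), which became −0.040 without control replicate 2, −0.047 without replicate 3 of let-607 RNAi, −0.18 without replicate 2 of let-607 RNAi and −0.19 without control replicate 1.

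Genes that make or load the fast transmitters had values near zero and were mostly rare. unc-17 loads acetylcholine into vesicles and had 2.68, 3.29 and 3.04 FPKM (RNAi-labelled) against 2.76, 2.40 and 2.84 FPKM (control), the highest log2 fold change of this group (0.16, SE 0.14), with overlap. cha-1 makes acetylcholine and had 2.27 ± 0.243 (RNAi-labelled) and 2.21 ± 0.157 FPKM (control), with a log2 fold change of 0.034 (SE 0.15). Both genes lie in one locus on the minus strand of chromosome IV, cha-1 at 3613931 to 3624697 and unc-17 at 3618259 to 3624699, so how fragments were split between them is uncertain.

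unc-25, the enzyme that makes GABA, had the lowest value of this group and was below in every library, at 20.2, 20.96 and 20.8 FPKM in libraries labelled let-607 RNAi against 22.02, 23.3 and 21.7 FPKM in the controls. The gap was small, a log2 fold change of −0.11 (SE 0.053), and it stayed negative under every alternative. unc-47, which loads GABA into vesicles of the same neurons, did not part the groups, at 1.56 ± 0.163 (RNAi-labelled) and 1.49 ± 0.3002 FPKM (control), with a log2 fold change of 0.076 (SE 0.22). Its level was far under that of unc-25 in all 6 libraries. eat-4, the vesicular glutamate transporter, overlapped as well, at 1.57 ± 0.186 (RNAi-labelled) and 1.52 ± 0.194 FPKM (control), with a log2 fold change of 0.044 (SE 0.19).

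bas-1 stood apart from the other genes of monoamine synthesis. It encodes the aromatic amino acid decarboxylase that completes the synthesis of both dopamine and serotonin, on the plus strand of chromosome III at 5612274 to 5614660. bas-1 had 28.8, 27.5 and 29.4 FPKM in libraries labelled let-607 RNAi, against 48.0, 48.3 and 45.6 FPKM in the controls. All 3 values were under all 3 control values, with a gap wider than the spread within either group. The levels were 28.6 ± 0.989 (RNAi-labelled) and 47.3 ± 1.48 FPKM (control) as mean ± SD (n = 3 each), 0.604-fold, and the log2 fold change was −0.73 with an SE of 0.050. Of all genes tested, 3.9% had a lower value. Leaving out each library in turn gave −0.75 to −0.70, and the other scalings, filters and pseudocounts −0.86 to −0.68.

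The enzymes that act just before bas-1 showed no such gap. cat-2 (tyrosine hydroxylase, for dopamine) had 0.71, 0.84 and 1.02 FPKM (RNAi-labelled) against 0.78, 0.62 and 0.67 FPKM (control), with overlap and a log2 fold change of 0.27 (SE 0.28). tph-1 (tryptophan hydroxylase, for serotonin) had 0.64, 0.90 and 0.81 FPKM (RNAi-labelled) against 0.75, 0.60 and 0.73 FPKM (control), with a log2 fold change of 0.15 (SE 0.29). cat-1, which loads monoamines into vesicles, had 1.34 ± 0.301 (RNAi-labelled) and 1.32 ± 0.116 FPKM (control), with a log2 fold change of 0.0092 (SE 0.23). Per unit length, these 3 genes were all far rarer than bas-1.

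tdc-1, the tyrosine decarboxylase for tyramine and octopamine, was the other monoamine gene below in every library. It had 18.1, 18.8 and 16.8 FPKM (RNAi-labelled) against 19.9, 21.4 and 19.9 FPKM (control), a log2 fold change of −0.19 (SE 0.065). Without bas-1 no monoamine gene was beyond 0.3 of zero.

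The dense core vesicle genes were all positive as deposited, with a median of 0.13, or 0.009 relative to all genes. Under other settings ida-1 and egl-21 turned negative (lowest values −0.027 and −0.028). unc-31 encodes CAPS, which primes dense core vesicles, and had the highest value of the group at 4.88, 6.19 and 8.04 FPKM (RNAi-labelled) against 5.13, 3.81 and 5.29 FPKM (control). The groups overlapped, and replicate 3 of let-607 RNAi was high: the log2 fold change was 0.40 (SE 0.21) with all libraries, 0.22 without that one and 0.26 without control replicate 2. unc-31 has 19 annotated transcripts, the most of the 35 genes. ida-1, a protein tyrosine phosphatase-like protein of the vesicle membrane, was at 26.1 ± 1.54 (RNAi-labelled) and 23.8 ± 1.72 FPKM (control) with overlap (log2 fold change 0.13, SE 0.074).

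Peptide processing takes 3 of these genes in turn. egl-3, the prohormone convertase that cuts the precursors, had 40.9, 39.4 and 44.5 FPKM in libraries labelled let-607 RNAi and 34.1, 34.4 and 31.03 FPKM in the controls, without overlap (log2 fold change 0.33, SE 0.067). sbt-1, the chaperone of this convertase, was above in every library by less, at 99.7 ± 2.16 (RNAi-labelled) and 91.2 ± 4.54 FPKM (control), with a log2 fold change of 0.13 (SE 0.048). egl-21, the carboxypeptidase that trims the cut peptides, was the lowest of the group at 66.1, 66.8 and 68.2 FPKM (RNAi-labelled) against 61.2, 67.2 and 60.1 FPKM (control), with overlap (log2 fold change 0.095, SE 0.053). The step that cuts and the step that trims thus had unequal values, and whether they differ was not tested.

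The 4 endocytosis members each lay above every control library, as 35.7% of all genes tested did. The 10 other endocytosis genes tested had 5 above and 1 below, and their median was 0.11, or −0.019 relative to all genes. unc-57 (endophilin, which bends membrane and recruits synaptojanin) was the highest, at 57.2, 61.7 and 55.5 FPKM in libraries labelled let-607 RNAi and 44.4, 41.9 and 41.99 FPKM in the controls, with a log2 fold change of 0.44 (SE 0.055). unc-11 (a clathrin adaptor that sorts synaptobrevin into the recovered membrane) was next, at 38.6, 45.5 and 44.9 FPKM (RNAi-labelled) against 34.9, 36.1 and 30.5 FPKM (control), with a log2 fold change of 0.34 (SE 0.091). dyn-1, the dynamin that pinches vesicles off in many cell types, followed at 30.9 ± 1.71 (RNAi-labelled) and 26.1 ± 1.71 FPKM (control), with a log2 fold change of 0.25 (SE 0.069).

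unc-26 (synaptojanin, which helps to shed the clathrin coat) was the lowest of the 4, at 11.4, 10.8 and 11.2 FPKM (RNAi-labelled) against 10.6, 10.5 and 9.42 FPKM (control), with a log2 fold change of 0.13 (SE 0.072), and its sign turned with quantile normalization (lowest value −0.064). The median of the 4 was 0.30, or 0.17 relative to all genes. Relative to all genes it was 0.17 and 0.18 with median-of-ratios scaling and quantile normalization.

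**Figure D3:**
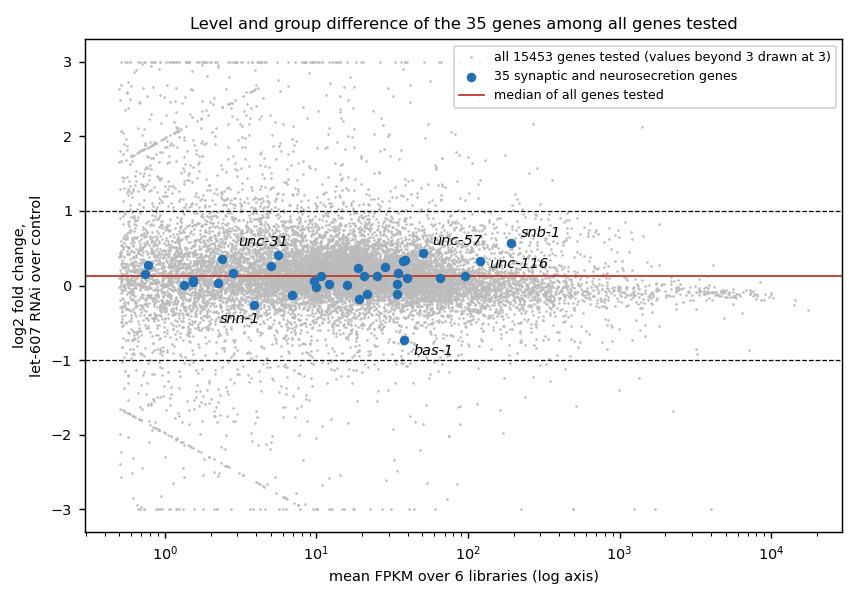
Log2 fold change (libraries labelled let-607 RNAi over those labelled control) against mean FPKM over the 6 libraries on a log axis, for all 15453 genes tested in grey and the 35 members in blue, with the median of all genes as a red line. The members lie close to the red line at all levels, with bas-1 (−0.73) and snb-1 (0.57) the farthest from it.

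Gene neighbours could blur some of these values. The library kit keeps strand according to the study's methods, but how strand was treated in counting is not given in the sources used here. Besides unc-17 and cha-1, there were 10 members that overlap a tested gene on the opposite strand. Overlap here is of whole gene spans, introns included, and can be short. tom-1 spans all of ostd-1, which was far more abundant (a mean of 242 FPKM). eat-4 overlaps ZK512.2 (a mean of 71.1 FPKM) only at its end, between 9141749 and 9141827 of chromosome III. cat-2, among the rarest members, overlaps scc-2 (38.1 FPKM). snb-1, bas-1 and unc-57 overlap no other gene that was tested.

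The members are not confined to a part of the genome. Chromosome I holds 5, II holds 6, III holds 7, IV holds 6, V holds 4 and X holds 7. Their summed level was 1058, 1100.0 and 1077 FPKM in libraries labelled let-607 RNAi against 947, 938 and 909 FPKM in the controls, so the sums did not overlap. snb-1 made up much of the gap. Without it, the sums were 826, 864 and 854 FPKM (RNAi-labelled) against 785, 789 and 756 FPKM (control).

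The wider pathway also lay around the shift of all genes. Of 145 further genes of release, the active zone, transport, transmitter handling, dense core vesicles, endocytosis, G protein signaling and transmitter receptors, 142 were tested, ace-4 and nmr-1 were under the minimum level and pick-1 was not matched by name. None of the 142 passed (limma), nor did any with an unadjusted p under 0.05 in place of the adjusted one. By adjusted p alone, 43 (30.3%) would be called higher and 2 (1.4%) lower, beside the 31.7% and 11.4% of all genes given above. Their median was 0.13 on the log2 scale, and they ranged from −0.44 to 0.86.

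The pathway lists had medians of 0.077 to 0.22, beside 0.13 for all genes, and no test compared the lists. By an adjusted p under 0.1 alone (limma), 31.7% of all genes tested were higher and 11.4% lower. By this rule 4 of 26 transmitter handling genes, 2 of 31 receptors and 6 of 16 other dense core genes were higher. So were 7 of 15 G protein signaling genes, 5 of 10 other endocytosis genes and 2 of 11 other active zone genes. In transmitter handling and in receptors, 1 gene each was lower. Of 21 other release genes 9 had an adjusted p under 0.1 and a positive value, and snap-29, a SNARE of the SNAP25 family that acts in many cells, was the farthest from zero, at 76.4, 78.3 and 77.0 FPKM in libraries labelled let-607 RNAi and 53.8, 49.1 and 54.4 FPKM in the controls. Its log2 fold change of 0.56 (SE 0.051, adjusted p = 0.000466, limma) was close to the 0.57 of snb-1. Among 12 axonal transport genes 8 were positive by adjusted p, with the highest median of the pathway lists (0.22), and dli-1, a light intermediate chain of dynein, was the farthest at 81.3 ± 0.766 FPKM (RNAi-labelled) against 59.8 ± 1.27 FPKM (control), with a log2 fold change of 0.44 (adjusted p = 0.000337).

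For transmitters and their receptors, the lists held enzymes, transporters and receptors. In 26 genes of transmitter handling the median was 0.077, and vglu-3, a vesicular glutamate transporter homolog, was the farthest at 8.86, 8.21 and 6.43 FPKM (RNAi-labelled) against 4.90, 3.75 and 4.12 FPKM (control), with a log2 fold change of 0.86 (SE 0.16, adjusted p = 0.00655). In 31 transmitter receptors the median was 0.081, and ser-4, a serotonin receptor, had 3.65 ± 0.460 (RNAi-labelled) and 2.25 ± 0.0929 FPKM (control), with a log2 fold change of 0.67 (adjusted p = 0.0107). vglu-3 and ser-4 were higher in every library labelled let-607 RNAi, and neither reached the fold set for passing.

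The remaining lists had medians of 0.11 to 0.16, around the 0.13 of all genes. unc-108, the RAB-2 GTPase that acts in dense core vesicle maturation, was the farthest of 16 other dense core genes at 229 ± 4.51 FPKM (RNAi-labelled) against 162 ± 2.71 FPKM (control), with a log2 fold change of 0.49 (adjusted p = 0.000137). Of 15 G protein signaling genes, gpb-2, the beta subunit that pairs with RGS proteins, had 57.4, 43.7 and 32.0 FPKM (RNAi-labelled) against 25.5, 25.9 and 29.1 FPKM (control), with a log2 fold change of 0.69 (SE 0.20, adjusted p = 0.0364), with a wide spread among the libraries labelled let-607 RNAi. fsn-1, an F-box protein of presynaptic development, led 11 other active zone genes (log2 fold change 0.36, adjusted p = 0.0137), and ehs-1, an endocytic adaptor, led 10 other endocytosis genes (log2 fold change 0.35, adjusted p = 0.0069).

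**Figure D4:**
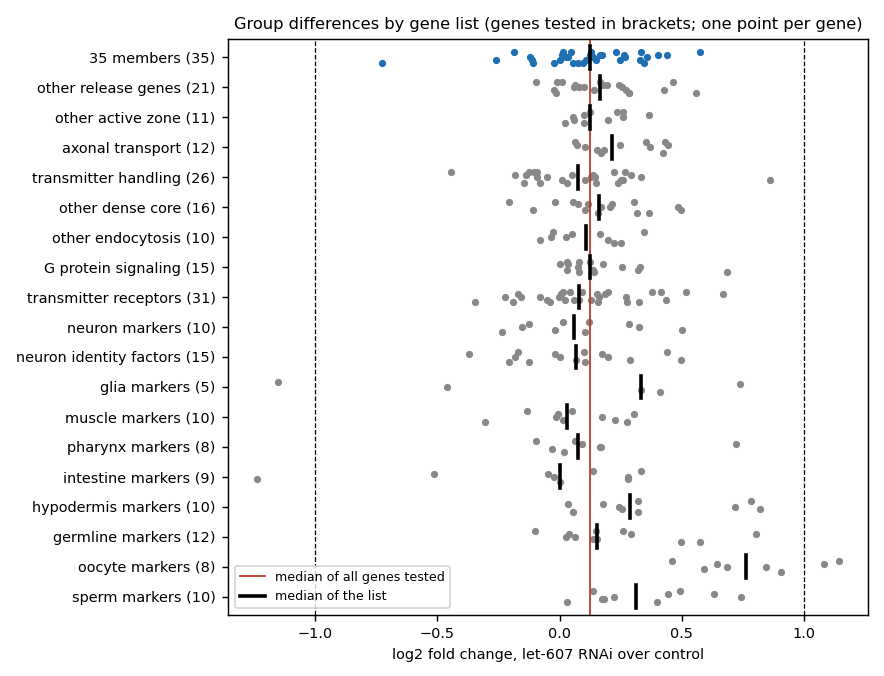
Log2 fold change (libraries labelled let-607 RNAi over those labelled control) of each gene tested, by list, with the 35 members in blue, other lists in grey, list medians as black bars and the median of all genes as a red line. The members (median 0.12) and the pathway lists lie around the red line, the neuron markers (median 0.060) slightly under it, and the oocyte markers (median 0.76) to its right.

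Because snb-1 differed between the groups, what dividing by it does to other genes was computed. In qPCR a reference transcript is taken to be equal in all samples, and each target is divided by it. The same division was done here on FPKM, for the 23 target genes in the study's list of primers. These are ratios of FPKM, and qPCR values were not analysed here. As deposited, 16 of the 23 targets were positive and 7 negative, with 8 above and 4 below without overlap, beside 35.7% above and 13.4% below over all genes. After division by snb-1 in each library, 2 were positive and 21 negative, with 0 above and 19 below. On the log2(FPKM + 0.1) scale, the division takes 0.57 from every log2 fold change. Since 87.3% of all genes tested had a lower value than snb-1, that share is negative after the division. The signs after division are therefore not particular to the targets. For the counts above and below after division, no share over all genes was computed, so nothing is read from them. Among other commonly used reference genes, act-1, ama-1, cdc-42, pmp-3 and tba-1 also lay below after division, and Y45F10D.4 overlapped.

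For let-607 itself the sign depended on the reference. Its log2 fold change was 0.30 as deposited and −0.27 after division by snb-1, without overlap of the groups in either case and in opposite directions. The median of all genes tested lay 0.45 under snb-1, farther under it than let-607 did. The negative sign after division therefore does not place let-607 below genes at large. daf-16, the FOXO transcription factor, was at 0.064 as deposited and −0.51 after division. sod-3, a superoxide dismutase gene and DAF-16 target, was at 0.16 as deposited and −0.41 after division, with overlap in both. The targets that stayed positive were sms-5 (1.41 as deposited and 0.83 after division), the only target that passed, and mtl-1, a metallothionein gene (1.25 as deposited and 0.68 after division), and the groups of both overlapped. Both are rare here, sms-5 at 2.68, 1.93 and 1.20 FPKM (RNAi-labelled) against 0.46, 1.4 and 0.37 FPKM (control), and mtl-1 at 1.67, 0.45 and 1.75 FPKM (RNAi-labelled) against 1.30, 0 and 0.85 FPKM (control), so that the value of mtl-1 depends on the pseudocount.

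**Figure D5:**
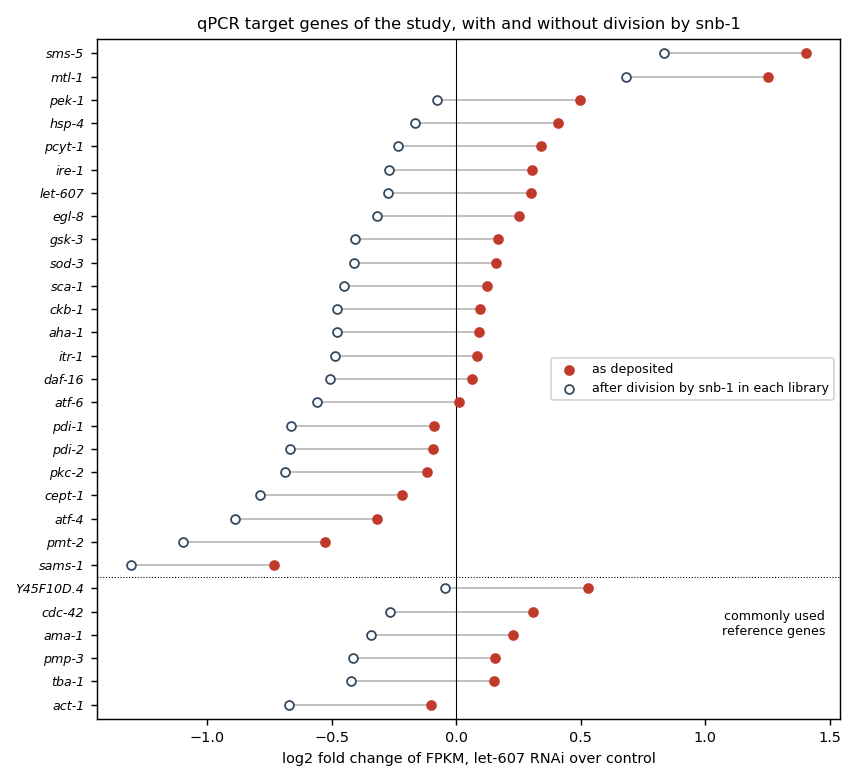
Log2 fold change of FPKM (libraries labelled let-607 RNAi over those labelled control) for the study's 23 qPCR targets and, under the dotted line, 6 commonly used reference genes, as deposited (filled) and after division by snb-1 in each library (open). Every pair is shifted left by 0.57, and only sms-5 and mtl-1 stay above zero.

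snb-1 was compared with 6 other transcripts that are commonly used as references in worms. Their log2 fold changes were −0.10 for act-1 (actin), 0.15 for tba-1 (alpha-tubulin), 0.16 for pmp-3 (a peroxisomal transporter), 0.23 for ama-1 (RNA polymerase II), 0.31 for cdc-42 (a small GTPase) and 0.53 for Y45F10D.4 (an iron-sulfur cluster protein). snb-1, at 0.57, was thus the highest of the 7, with Y45F10D.4 close to it. act-1 was the lowest and its groups overlapped, at 3972, 4005 and 3854 FPKM in libraries labelled let-607 RNAi against 4417, 4286 and 3992 FPKM in the controls. Relative to the median of all genes, snb-1 was 0.45 with the values as deposited, 0.45 after rescaling to TPM, 0.45 with median-of-ratios scaling and 0.55 with quantile normalization.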

How the data were processed

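RNA sequencing libraries of whole L4 worms (3 labelled let-607 RNAi, 3 labelled control) were compared from the FPKM per gene that the authors deposited. The study's methods name a stranded mRNA kit, TopHat and Cufflinks, the submitters' processing notes name fastp, HISAT and RSEM, and both give WBcel235, so which tools made the FPKM is not settled. Of 48197 lines, 1 broken line and 1418 repeats were left out. Genes were named with Ensembl annotation release 115, which held 46603 of the 46778 identifiers.

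Values were compared as log2(FPKM + 0.1) with limma 3.58.1 in R 4.3.3 (lmFit, eBayes with trend), without covariates, for genes whose mean reached 0.5 FPKM, with Benjamini-Hochberg adjustment. Fold changes on this scale understate those of rare genes. SDs are of FPKM. Python 3.11.15 (pandas 2.3.3, numpy 2.4.6, scipy 1.17.1, matplotlib 3.10.9) did the rest. The comparison was tested on simulated data.

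Members, role groups, pathway lists and markers were chosen with earlier results of these data known. All members are named, with the value in every library for snb-1 and for the highest and lowest of each role group of 3 or more, and for some others chosen after their values were seen. Of each pathway list the gene farthest from zero is named. Alternatives were 2 pseudocounts, 3 filters, 3 scalings, 2 variance models, a replicate block, 2 call rules and leaving out each library.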

Additional observations from a re-analysis of the deposited data

How the results depend on the processing

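No member and no pathway gene passed under any of the alternatives that kept the minimum fold change. With no minimum fold change, 12 members, 45 pathway genes, 4892 higher genes and 1759 lower genes were called. With a mean of at least 5 FPKM, 275 genes passed as higher and 124 as lower. The median of the members moved with the scaling, to 0.001 (median-of-ratios scaling) and −0.06 (quantile normalization), as did that of all genes, to 0.004 and −0.025, and snb-1 was at 0.45 with median-of-ratios scaling. Higher genes were 72.8% of those passing, and 58.4% after quantile normalization. Leaving out each library gave member medians of 0.092 to 0.146. Over these settings 17 members changed sign and 18 did not.

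Replicate numbers did not pair the libraries (correlations of same-numbered deviations −0.058, 0.003 and −0.018). The replicate block gave 586 higher and 218 lower genes, no member, a member median of 0.124 and 0.573 for snb-1, so it changed no call among the members. Depth was only estimated, and gave the fewest fragments for tph-1 (21 to 32 per library). FPKM cannot tell a change per worm from one in the share of RNA.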
